A study of Mus musculus with 4 samples.

Results

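The genes described here are the targets of the transcription factor NRF2 together with the enzymes of glutathione metabolism, as they were expressed in 2 mouse endometrial cancer cell lines. The module is a list of 41 antioxidant and detoxification genes taken by name, and it was drawn up with earlier results of these data known. All 41 were found among the 22594 genes that the deposited table covers, and all 41 passed the filter of at least 1 TPM in at least 2 libraries. The study profiled steady-state RNA of the lines labelled MECPK and MSH2KO21B, each run in duplicate, so there were 2 libraries per line, called replicates 1 and 2. The labels give no genotype, treatment, passage or time for either line, do not say whether 1 line derives from the other, and do not say whether replicates were separate cultures. Line names are therefore used only as labels, each line stands for 1 culture model of unknown clonality, and a p-value here reflects just the variation among these libraries, which could be technical. Every mean and test has n = 2 libraries per line.

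NRF2, encoded by Nfe2l2, is a leucine zipper factor that is kept low in unstressed cells because KEAP1 binds it and hands it to a CUL3 ubiquitin ligase for destruction. Oxidants and electrophiles modify KEAP1, NRF2 then accumulates, pairs with a small MAF protein and binds the antioxidant response element of its target genes. The targets make and recycle glutathione, run the thioredoxin system, supply NADPH, conjugate electrophiles, reduce peroxides and quinones and store iron, and in epithelia they are known for handling toxic small molecules. Because NRF2 is controlled mostly through protein stability, its RNA level alone does not report its activity.

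Values are TPM, a transcript's share of a library in parts per 1000000 after correction for transcript length. TPM keeps no depth, so the sequencing depth is unknown and a gene listed at 0 may lie below the reach of the sequencing. All differences are MSH2KO21B minus MECPK in log2(TPM + 1), a scale that understates the change of low genes, and a gene is called when its limma p, adjusted by Benjamini-Hochberg over the 11921 genes tested, is under 0.05. The lines differed across most of the transcriptome. The calls took in 76.2% of all genes tested, with 46.6% higher and 29.7% lower in MSH2KO21B. In all, 88.9% had libraries that did not overlap between the lines. The median gene differed by 0.19 as deposited, and higher genes made up 61.1% of calls. With quantile normalization the median was -0.025 and the share 48.1%, and with median-ratio scaling 0.019 and 50.7%. Both lines carried epithelial RNA: the 10 epithelial markers summed to 6320.4 and 6185 TPM in MECPK and 7566 and 7476 TPM in MSH2KO21B. Their kinds differed, with the glandular keratin gene Krt18 at 1284 and 1288 TPM in MECPK and 4.17 and 2.84 TPM in MSH2KO21B and the basal keratin gene Krt5 at 1.10 and 0.680 TPM in MECPK and 3888 and 3810.1 TPM in MSH2KO21B. The 7 markers of Mullerian epithelium summed to 94.0 and 92.6 TPM in MECPK and 16.5 and 15.5 TPM in MSH2KO21B. Among them Pax8, Pax2 and Emx2 were called lower in MSH2KO21B. Esr1 went the other way and was called higher (log2 difference 0.67, limma adjusted p = 0.00317). Hoxa10, Hoxa11 and Sox17 were listed at 0 in all 4 libraries. Markers of fibroblasts, immune cells and hepatocytes stayed between 0.0146 and 3.72 TPM per list, and the 5 endothelial markers at or under 2.84 TPM. The part of the change in epithelial type in the results below was not tested. In bulk RNA, fewer cells of a type and less RNA per cell cannot be told apart.

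The module did not move as a block. Of its 41 genes, 20 were higher in MSH2KO21B, 12 were lower and 9 were not called. Quantile normalization and median-ratio scaling each gave 18 higher and 16 lower. The share of members called, 78.0%, was near the 76.2% of all genes tested, of which 46.6% were higher and 29.7% lower, so the counts alone do not set the module apart. The median member differed by 0.086 relative to the median of all genes. Libraries did not overlap between the lines in 40 of the 41, and in 88.9% of all genes tested. The largest positive differences were in the peroxidase gene Gpx2 and the glutathione transferase genes Gsta4 and Gsta1, and the largest negative ones in the ferritin heavy chain gene Fth1 and the thioredoxin reductase gene Txnrd1. Of the called members 16 differed by more than 1 on the log2 scale, 11 higher and 5 lower, where 30.3% of all genes tested did. Nqo1, Gsta3, Gpx2 and Gpx3 were under 1 TPM in both MECPK libraries and so passed the filter through MSH2KO21B alone. Gsta1 (1.14 and 0.797 TPM in MECPK) and Aldh3a1 (1.71 and 0.0377 TPM) reached 1 TPM there only in replicate 1. They too could not pass without MSH2KO21B. The levels of 28 members were at least 10 TPM in all 4 libraries.

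**Figure D1:**
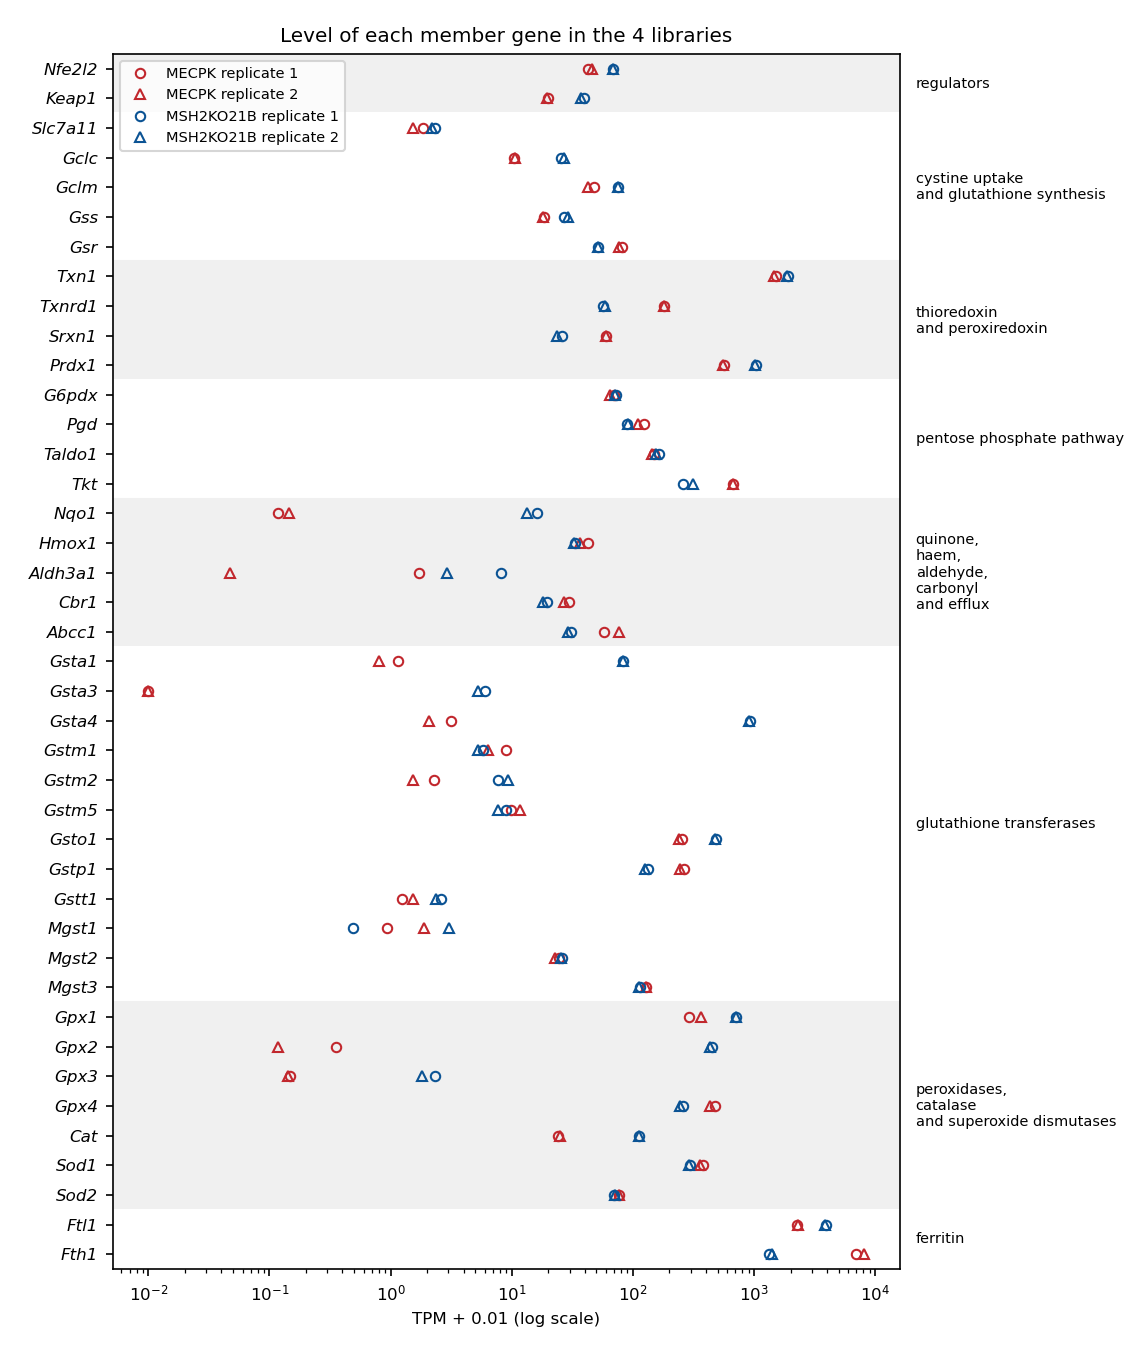
Level of each of the 41 members in each library, as TPM + 0.01 on a log axis, grouped by role; red is MECPK, blue is MSH2KO21B, circles are replicate 1 and triangles replicate 2. Replicates lie close together for most genes, Gsta3 sits at 0 in both MECPK libraries, and Mgst1 is the member whose lines overlap.

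**Figure D2:**
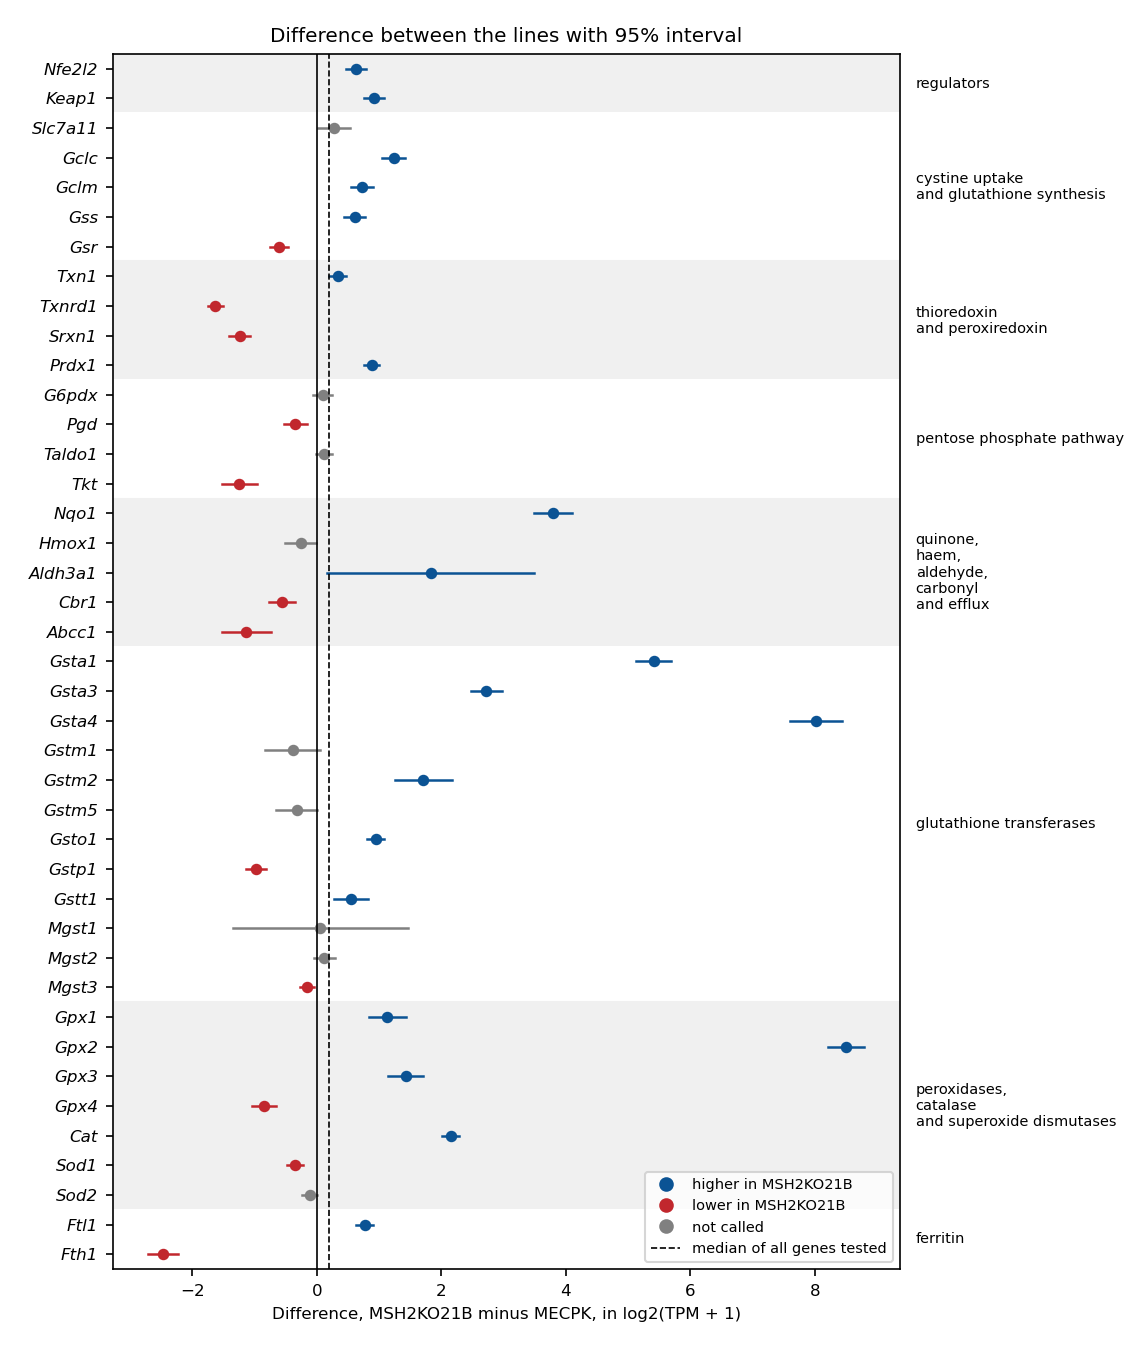
Difference of each member between the lines, MSH2KO21B minus MECPK in log2(TPM + 1), with the 95% interval from limma (n = 2 libraries per line); blue points were called higher, red points lower and grey points not called. The dashed line is the median of all genes tested, 0.19, and Gpx2 (8.50) and Fth1 (-2.47) mark the ends.

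The core of the antioxidant response element was looked for in the windows that RefSeq gives for 35 of the members. Each window runs from 250 bases before to 50 bases after a start listed for the gene on GRCm38.p6. The letters searched were TGACNNNGC and TGAGNNNGC on both strands, 9 bases each, where N is any base. They were in 15 of 44 member windows, 34.1%, and in 27.8% of all 32817 windows in the table. Members of each kind held them, 5 of the 17 higher members with a window, 5 of the 10 lower ones and 5 of the 8 that were not called. A match describes the letters only, and many known elements lie outside such a window. The windows below belong to the 5 called members with a match that had the largest differences, the higher genes Gsta3 and Prdx1 and the lower genes Txnrd1, Srxn1 and Gstp1, and are shown because a match stood in windows of genes that went in opposite directions. Capitals mark each match, all else is in lower case, and each runs 5′ to 3′ on the gene's own strand.
Gsta3, chr1:21240335-21240634, plus strand: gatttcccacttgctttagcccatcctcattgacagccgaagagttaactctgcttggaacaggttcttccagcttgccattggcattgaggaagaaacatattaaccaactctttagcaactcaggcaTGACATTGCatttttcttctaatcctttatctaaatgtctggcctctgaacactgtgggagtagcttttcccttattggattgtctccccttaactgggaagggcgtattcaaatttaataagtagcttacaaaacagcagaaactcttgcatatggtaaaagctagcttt
Prdx1, chr4:116685349-116685648, plus strand: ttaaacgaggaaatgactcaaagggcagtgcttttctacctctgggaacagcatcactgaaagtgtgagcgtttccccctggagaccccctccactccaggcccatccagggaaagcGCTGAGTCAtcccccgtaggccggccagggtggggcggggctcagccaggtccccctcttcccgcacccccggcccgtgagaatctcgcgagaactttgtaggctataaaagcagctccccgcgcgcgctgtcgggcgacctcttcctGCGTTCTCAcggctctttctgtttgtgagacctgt
Txnrd1, chr10:82858956-82859255, plus strand: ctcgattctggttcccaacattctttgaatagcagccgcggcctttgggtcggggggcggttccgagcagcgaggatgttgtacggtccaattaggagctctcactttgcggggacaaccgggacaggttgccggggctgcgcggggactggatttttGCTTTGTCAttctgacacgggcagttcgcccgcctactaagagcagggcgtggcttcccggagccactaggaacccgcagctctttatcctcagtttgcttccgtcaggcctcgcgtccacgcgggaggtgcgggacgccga
Srxn1, chr2:152105274-152105573, plus strand: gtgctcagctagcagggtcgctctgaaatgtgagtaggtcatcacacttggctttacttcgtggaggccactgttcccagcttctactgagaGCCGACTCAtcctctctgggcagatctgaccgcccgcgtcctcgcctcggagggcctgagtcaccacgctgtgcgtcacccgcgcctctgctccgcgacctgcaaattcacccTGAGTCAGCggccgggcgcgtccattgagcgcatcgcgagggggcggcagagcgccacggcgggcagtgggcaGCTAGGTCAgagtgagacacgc
Gstp1, chr19:4037863-4038162, minus strand: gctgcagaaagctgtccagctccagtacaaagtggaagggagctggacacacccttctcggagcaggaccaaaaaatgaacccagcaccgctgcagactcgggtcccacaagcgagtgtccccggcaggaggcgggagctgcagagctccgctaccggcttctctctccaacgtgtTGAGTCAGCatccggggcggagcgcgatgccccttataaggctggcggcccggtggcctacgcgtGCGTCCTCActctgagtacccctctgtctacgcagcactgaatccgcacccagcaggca
The match began 121 bases before the start in Gsta3 and 92 bases before it in Txnrd1. The Txnrd1 window lies inside the span of the gene, which begins at 82833951, so its start is not the outermost one. In Srxn1 the 3 matches began 158 and 45 bases before the start and 28 bases after it, in Gstp1 the 2 began 74 and 9 bases before it, and in Prdx1 the 2 began 133 bases before and 15 bases after it. Srxn1 and Gstp1, both lower in MSH2KO21B, held the same 9 letters TGAGTCAGC, and Prdx1, which was higher, held GCTGAGTCA.

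Both regulators of the pathway were higher in MSH2KO21B. Nfe2l2 (chromosome 2, 75675513 to 75704641), which encodes NRF2, was at 42.3 and 45.7 TPM in MECPK and 68.3 and 68.6 TPM in MSH2KO21B. Its MSH2KO21B libraries lay above both MECPK libraries and 1.56-fold higher on average (log2 difference 0.63 ± 0.059 SE, limma Benjamini-Hochberg adjusted p = 0.000695). Keap1 (chromosome 9, 21229730 to 21239361), which encodes the adaptor that marks NRF2 for destruction, was at 19.9 and 19.6 TPM in MECPK and 39.4 and 37.0 TPM in MSH2KO21B. This inhibitor was higher as well, 1.94-fold (log2 difference 0.92 ± 0.061 SE, limma adjusted p = 0.000236). Both genes thus moved in the same direction. Ratios and shares of members were picked with the values in view and have no test. The ratio of Nfe2l2 to Keap1, which does not depend on how libraries are scaled, was 2.13 and 2.33 in MECPK and 1.74 and 1.85 in MSH2KO21B. It was lower in both MSH2KO21B libraries than in either MECPK library.

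Among genes for making glutathione, the synthesis steps were higher in MSH2KO21B and the recycling step was lower. Gclc (chromosome 9, 77754535 to 77794485), the catalytic subunit of glutamate-cysteine ligase and the limiting step of synthesis, was at 10.4 and 10.7 TPM in MECPK and 25.3 and 27.2 TPM in MSH2KO21B. Gclc was 2.49-fold higher (log2 difference 1.24 ± 0.069 SE, limma Benjamini-Hochberg adjusted p = 0.000144). Its partner Gclm, the modifier subunit, was at 47.7 and 42.8 TPM in MECPK and 75.3 and 75.3 TPM in MSH2KO21B. Gclm was 1.66-fold higher (log2 difference 0.72 ± 0.069 SE, limma adjusted p = 0.000726). Neither gene's lines overlapped, and the excess of modifier over catalytic RNA narrowed, with a Gclm to Gclc ratio of 4.58 and 4.01 in MECPK and 2.98 and 2.77 in MSH2KO21B. Gss, glutathione synthetase, which adds the last amino acid, was at 18.3 and 18.0 TPM in MECPK and 27.1 and 29.1 TPM in MSH2KO21B. Gss was called higher (log2 difference 0.60 ± 0.065 SE, limma adjusted p = 0.00108). Gsr, the reductase that turns oxidised glutathione back to its reduced form, was at 81.5 and 76.6 TPM in MECPK and 51.9 and 51.6 TPM in MSH2KO21B and so was 1.53-fold lower in MSH2KO21B (log2 difference -0.60 ± 0.054 SE, limma adjusted p = 0.0006). Slc7a11, the cystine importer that feeds synthesis and a widely used NRF2 target, was low in all libraries, at 1.84 and 1.53 TPM in MECPK and 2.32 and 2.18 TPM in MSH2KO21B. It was not called (log2 difference 0.28, 95% interval 0.023 to 0.54, limma adjusted p = 0.0505), although its libraries did not overlap, and its sign turned after quantile normalization (-0.25). It was called higher without the mean-variance trend (adjusted p = 0.0344), when rescaled without mitochondrially encoded genes (0.0405), with protein-coding transcripts only (0.0435) and without MECPK replicate 1 (0.0358).

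Among the 4 members of the thioredoxin system, the enzymes Txnrd1 and Srxn1 were lower in MSH2KO21B and Prdx1 and Txn1 were higher. Txnrd1 (chromosome 10, 82833951 to 82897712), the cytosolic reductase that keeps thioredoxin active with NADPH, was at 180.3 and 181 TPM in MECPK and 56.5 and 58.3 TPM in MSH2KO21B. The replicates of each line were nearly equal, and the level in MSH2KO21B was 3.14-fold lower (log2 difference -1.64 ± 0.045 SE, limma Benjamini-Hochberg adjusted p = 2.2e-05). Srxn1, sulfiredoxin, which repairs overoxidised peroxiredoxins, was at 59.5 and 59.7 TPM in MECPK and 25.8 and 23.6 TPM in MSH2KO21B, also without overlap and 2.41-fold lower (log2 difference -1.24 ± 0.064 SE, limma adjusted p = 0.000114). Prdx1, an abundant peroxiredoxin that removes hydrogen peroxide, was at 566 and 554 TPM in MECPK and 1040.0 and 1019.9 TPM in MSH2KO21B. Prdx1 was 1.84-fold higher (log2 difference 0.88 ± 0.044 SE, limma adjusted p = 0.000104). Txn1, thioredoxin itself, was at 1526 and 1467 TPM in MECPK and 1913 and 1853 TPM in MSH2KO21B. Txn1 was called higher (log2 difference 0.33 ± 0.050 SE, limma adjusted p = 0.00355). The Txn1 difference was small, and its call was lost after median-ratio scaling (adjusted p = 0.0824) and without MSH2KO21B replicate 1 (0.0501). The direction of Prdx1 was not that of its family. Outside the module, all 5 other peroxiredoxin genes were called lower by limma, with log2 differences of -0.75 for Prdx2, -0.98 for Prdx3, -4.92 for Prdx4, -2.03 for Prdx5 and -0.60 for Prdx6. Txn2, the mitochondrial thioredoxin, was lower as well (-0.35). Prdx2, Prdx3, Prdx5, Prdx6 and Txn2 were named after their values were seen.

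In the pentose phosphate pathway, which yields NADPH for both glutathione and thioredoxin, no member was called higher on the deposited scale. Tkt, transketolase, which links the pathway to glycolysis, was at 676 and 676 TPM in MECPK and 258 and 315 TPM in MSH2KO21B. The MECPK libraries were nearly equal and both MSH2KO21B libraries were lower, 2.36-fold on average (log2 difference -1.24 ± 0.10 SE, limma Benjamini-Hochberg adjusted p = 0.000474). Its leading transcript is annotated as a target of nonsense-mediated decay and held 63.2% and 66.2% in MECPK and 58.3% and 66.1% in MSH2KO21B of the gene's TPM, and with protein-coding transcripts alone the log2 difference was -1.15. Pgd, which makes NADPH at the second oxidative step, was at 123 and 109 TPM in MECPK and 90.1 and 91.3 TPM in MSH2KO21B. Pgd was called lower (log2 difference -0.35 ± 0.071 SE, limma adjusted p = 0.00925), a call that was lost without either MSH2KO21B library (adjusted p = 0.088 and 0.0807). G6pdx, glucose-6-phosphate dehydrogenase at the entry of the pathway, was at 69.9 and 64.8 TPM in MECPK and 71.9 and 71.6 TPM in MSH2KO21B, with a 95% interval of the log2 difference of -0.061 to 0.24. Taldo1, transaldolase, was at 149 and 145 TPM in MECPK and 163 and 156 TPM in MSH2KO21B, with an interval of -0.011 to 0.25. Neither was called, and both differences were negative after median-ratio scaling (-0.094 for G6pdx and -0.069 for Taldo1). Rescaled without mitochondrially encoded genes, Taldo1 was called higher (log2 difference 0.15, limma adjusted p = 0.0434).

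Nqo1 (chromosome 8, 107388225 to 107403206), which encodes the quinone reductase commonly used as a readout of NRF2, was near 0 in MECPK. It was at 0.109 and 0.135 TPM in MECPK and 16.1 and 13.3 TPM in MSH2KO21B, a gap of 3.80 ± 0.11 SE on the log2 scale (limma Benjamini-Hochberg adjusted p = 2.7e-05). Hmox1, the inducible haem oxygenase that releases iron and biliverdin from haem, did not follow it. Hmox1 was at 43.0 and 36.5 TPM in MECPK and 33.6 and 32.3 TPM in MSH2KO21B and was not called (log2 difference -0.26, 95% interval -0.51 to -0.012, limma adjusted p = 0.0565), although it was called lower after quantile normalization (adjusted p = 0.0239) or median-ratio scaling (0.0143), with protein-coding transcripts only (0.0484), with a replicate block (0.0332) and without MECPK replicate 2 (0.0154). Cbr1, a carbonyl reductase, was at 29.7 and 27.1 TPM in MECPK and 19.6 and 18.1 TPM in MSH2KO21B and was 1.51-fold lower in MSH2KO21B (log2 difference -0.57 ± 0.078 SE, limma adjusted p = 0.00254). Abcc1, the efflux pump that exports glutathione conjugates, was at 57.8 and 77.1 TPM in MECPK and 30.7 and 29.2 TPM in MSH2KO21B. Its MECPK libraries differed from each other, yet both were above MSH2KO21B, which was 2.25-fold lower (log2 difference -1.13 ± 0.15 SE, limma adjusted p = 0.00204). Aldh3a1, an aldehyde dehydrogenase, was at 1.71 and 0.0377 TPM in MECPK and 8.11 and 2.88 TPM in MSH2KO21B and was called higher (log2 difference 1.83 ± 0.62 SE, limma adjusted p = 0.0489). That call is weak, since replicate 1 was above replicate 2 in both lines and the call was lost when MECPK replicate 2 (adjusted p = 0.216), MSH2KO21B replicate 1 (0.272) or MSH2KO21B replicate 2 (0.0922) was left out. It was also lost in 5 of the other alternatives. A single transcript held 92.8% and 0% in MECPK and 67.9% and 0% in MSH2KO21B of the gene's TPM.

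The glutathione transferases, which couple glutathione to electrophiles, carried more RNA in MSH2KO21B. The 12 members summed to 701 and 664 TPM in MECPK and 1799 and 1770.0 TPM in MSH2KO21B, a level set mostly by 1 gene. Gsta4 (chromosome 9, 78182774 to 78209349), an alpha class enzyme that acts on the lipid peroxidation product hydroxynonenal, was at 3.17 and 2.05 TPM in MECPK and 927 and 916 TPM in MSH2KO21B. It was 353-fold higher in MSH2KO21B (log2 difference 8.02 ± 0.16 SE, limma Benjamini-Hochberg adjusted p = 1.0e-05), and its share of the summed transferase TPM was 0.451% and 0.309% in MECPK and 51.5% and 51.8% in MSH2KO21B. Gsta1, of the same class, was at 1.14 and 0.797 TPM in MECPK and 82.4 and 82.3 TPM in MSH2KO21B. Gsta1 was 85.1-fold higher (log2 difference 5.41 ± 0.11 SE, limma adjusted p = 1.0e-05). Its value is uncertain, because 87.8% of its 31-base words also occur in the neighbouring gene model Gm3776, which was listed at 1.01 and 0.342 TPM in MECPK and 81.9 and 83.1 TPM in MSH2KO21B. Gsta3, which in mice takes part in aflatoxin detoxification, had values of 0 in both libraries of MECPK and of 5.96 and 5.27 TPM in MSH2KO21B (limma adjusted p = 3.6e-05).

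The pi and omega classes made up most of the transferase RNA in MECPK. Gstp1, the pi class enzyme common in epithelia and tumours, was at 265 and 246 TPM in MECPK and 132 and 126 TPM in MSH2KO21B, 1.98-fold lower in MSH2KO21B (log2 difference -0.98 ± 0.059 SE, limma Benjamini-Hochberg adjusted p = 0.000175), and its share of the transferase TPM was 37.8% and 37.1% in MECPK and 7.34% and 7.09% in MSH2KO21B. It shares 67.5% of its 31-base words with Gstp2, which was at 0.486 and 0.495 TPM in MECPK and 1.63 and 2.55 TPM in MSH2KO21B. Gsto1, an omega class enzyme with reductase activity, was at 256 and 241 TPM in MECPK and 485 and 474 TPM in MSH2KO21B and was 1.93-fold higher (log2 difference 0.94 ± 0.051 SE, limma adjusted p = 0.000128). The mu class was low and mixed. Gstm2 was at 2.29 and 1.52 TPM in MECPK and 7.63 and 9.33 TPM in MSH2KO21B and was called higher (log2 difference 1.71 ± 0.17 SE, limma adjusted p = 0.000841). Gstm1 was at 8.95 and 6.34 TPM in MECPK and 5.76 and 5.27 TPM in MSH2KO21B, and its log2 difference had a 95% interval of -0.84 to 0.054. Gstm5 was at 9.77 and 11.7 TPM in MECPK and 9.03 and 7.65 TPM in MSH2KO21B, with an interval of -0.66 to 0.0089. Neither was called in the deposited scale, and both were called lower after quantile normalization (adjusted p = 0.0146 for Gstm1 and 0.00721 for Gstm5) and after median-ratio scaling (0.0404 and 0.0184). Gstm1 was also called lower with a replicate block (0.0394) and without MECPK replicate 2 (0.0165), and Gstm5 with protein-coding transcripts only (0.0129). Gstt1, of the theta class, was at 1.24 and 1.52 TPM in MECPK and 2.61 and 2.35 TPM in MSH2KO21B and was called higher (log2 difference 0.55 ± 0.10 SE, limma adjusted p = 0.00675), but not after quantile normalization (adjusted p = 0.836). Of the microsomal enzymes, Mgst3 was at 128 and 127 TPM in MECPK and 114 and 113 TPM in MSH2KO21B and was slightly lower (log2 difference -0.17 ± 0.042 SE, limma adjusted p = 0.0205), a call that was lost without the mean-variance trend (adjusted p = 0.0512) and without either MSH2KO21B library (0.0732 and 0.0849). Mgst2, at 24.4 and 22.9 TPM in MECPK and 26.1 and 25.5 TPM in MSH2KO21B, was not called (95% interval -0.046 to 0.29). Mgst1 was the member whose lines overlapped, at 0.920 and 1.89 TPM in MECPK and 0.478 and 3.04 TPM in MSH2KO21B (95% interval -1.35 to 1.46).

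Position on the chromosome set some of these genes side by side. Gclc and Gsta4 lie on chromosome 9 of GRCm38 with 388 kb between them, and Gsta1 follows Gsta4 after 21.3 kb. All 3 were higher in MSH2KO21B, but not all genes between them were. Elovl5, which lies between Gclc and Gsta4, was at 78.3 and 70.1 TPM in MECPK and 68.8 and 73.6 TPM in MSH2KO21B and was not called (limma adjusted p = 0.523, log2 difference -0.057). Ick in the same interval was at 8.86 and 13.9 TPM in MECPK and 9.89 and 7.95 TPM in MSH2KO21B and was not called either (limma adjusted p = 0.291). Fbxo9 was at 13.0 and 13.2 TPM in MECPK and 15.9 and 17.9 TPM in MSH2KO21B and rose by 0.34 on the log2 scale (limma adjusted p = 0.0164). These neighbours were named after their values were seen. In the mu cluster on chromosome 3, which runs from Gstm5 to Gstm4, Gstm2 and Gstm7 were higher, Gstm5, Gstm1 and Gstm4 were not called, and Gstm6 and Gstm3 did not pass the filter. In the theta cluster on chromosome 10, Gstt3 and Gstt1 lie 2.40 kb apart and both were higher, and Gstt4 and Gstt2 did not pass the filter.

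**Figure D3:**
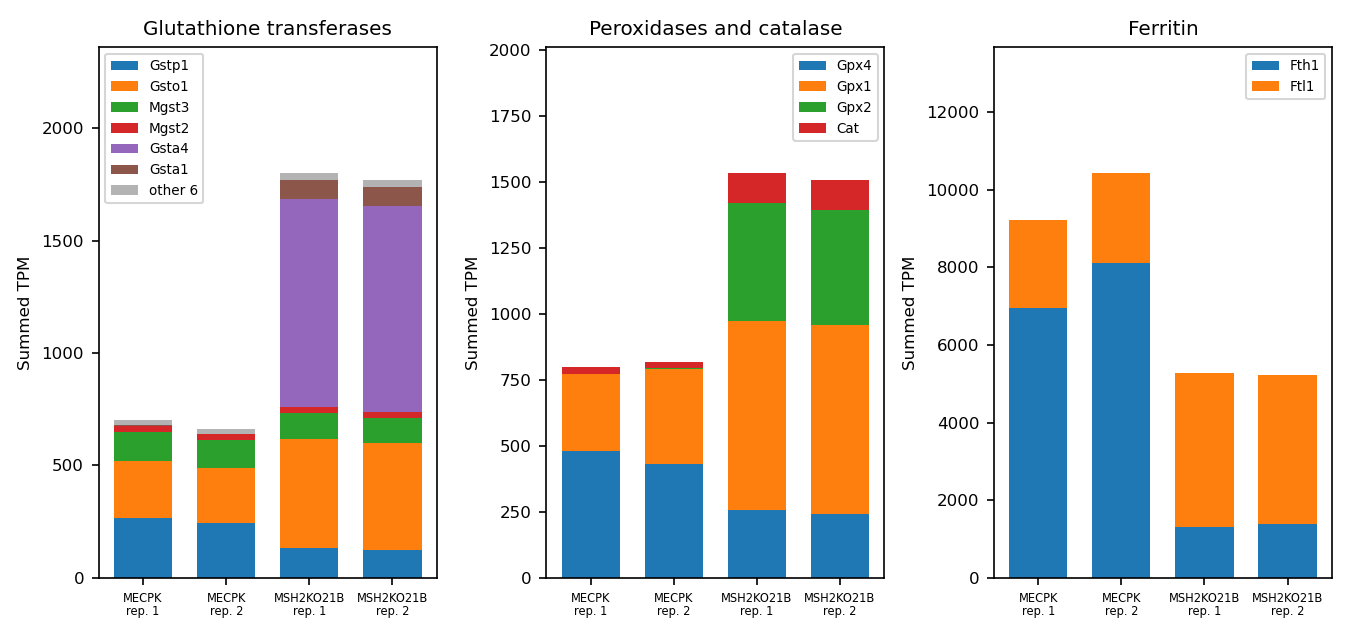
Summed TPM of the glutathione transferases, of the peroxidases and catalase and of ferritin in each library, stacked by gene on linear axes that start at 0. Gsta4 and Gpx2 add layers in MSH2KO21B that are close to invisible in MECPK, and the larger ferritin layer changes from Fth1 to Ftl1.

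Enzymes that remove peroxides shifted in kind between the lines. Gpx2 (chromosome 12, 76792333 to 76795554), the glutathione peroxidase typical of gastrointestinal epithelium, was at 0.346 and 0.108 TPM in MECPK and 448 and 436 TPM in MSH2KO21B. It had the largest difference of the 41 members (log2 difference 8.50 ± 0.11 SE, limma Benjamini-Hochberg adjusted p = 5.6e-06), and its share of the TPM of the 4 peroxidase members was 0.0448% and 0.0136% in MECPK and 31.5% and 31.2% in MSH2KO21B. Gpx1, the ubiquitous cytosolic peroxidase, was at 292 and 363 TPM in MECPK and 713 and 714 TPM in MSH2KO21B and was 2.18-fold higher (log2 difference 1.13 ± 0.11 SE, limma adjusted p = 0.000836). Cat, catalase of the peroxisome, was at 24.1 and 25.2 TPM in MECPK and 113 and 113 TPM in MSH2KO21B, with no overlap and nearly equal replicates (4.58-fold higher, log2 difference 2.15 ± 0.051 SE, limma adjusted p = 1.5e-05). Gpx3, a secreted peroxidase, was low, at 0.138 and 0.133 TPM in MECPK and 2.29 and 1.82 TPM in MSH2KO21B. Gpx3 was called higher (log2 difference 1.42 ± 0.11 SE, limma adjusted p = 0.000345). Gpx4 went the other way. It reduces lipid peroxides in membranes and protects against ferroptosis, and it was at 480.3 and 429.5 TPM in MECPK and 258 and 244 TPM in MSH2KO21B. Gpx4 was 1.81-fold lower (log2 difference -0.85 ± 0.073 SE, limma adjusted p = 0.000503). The ratio of Gpx1 to Gpx4 was 0.608 and 0.846 in MECPK and 2.76 and 2.93 in MSH2KO21B, so their order was opposite in the lines.

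The superoxide dismutases, which turn superoxide into hydrogen peroxide, differed little. Sod1, the copper and zinc enzyme of the cytosol, was at 380.4 and 360.4 TPM in MECPK and 293 and 289 TPM in MSH2KO21B, 1.27-fold lower in MSH2KO21B (log2 difference -0.35 ± 0.049 SE, limma Benjamini-Hochberg adjusted p = 0.00268). Sod2, the manganese enzyme of mitochondria, was at 76.6 and 76.6 TPM in MECPK and 70.3 and 71.3 TPM in MSH2KO21B and was not called (log2 difference -0.11, 95% interval -0.23 to 0.0064, limma adjusted p = 0.0743). After quantile normalization and median-ratio scaling it was called lower (adjusted p = 0.0159 and 0.00353).

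Ferritin, the iron store, is a shell of heavy and light chains, and their RNAs moved in opposite directions. Fth1 (chromosome 19, 9980598 to 9985098), the heavy chain that oxidises iron, was at 6967 and 8111 TPM in MECPK and 1323 and 1396 TPM in MSH2KO21B. It was the most abundant member in MECPK and there made up 46.8% and 50.8% of the summed TPM of the 41 genes, against 10.2% and 10.9% in MSH2KO21B, where it was 5.55-fold lower (log2 difference -2.47 ± 0.091 SE, limma Benjamini-Hochberg adjusted p = 4.6e-05). Ftl1 (chromosome 7, 45457944 to 45459884), the light chain that helps iron to deposit, was at 2265 and 2313 TPM in MECPK and 3954 and 3830.5 TPM in MSH2KO21B and was 1.70-fold higher (log2 difference 0.77 ± 0.051 SE, limma adjusted p = 0.000233). The ratio of heavy to light chain RNA was 3.08 and 3.51 in MECPK and 0.334 and 0.364 in MSH2KO21B. It did not overlap between the lines and, as a ratio within a library, does not depend on scaling. Ferritin genes have processed pseudogenes that were not analysed here, so both values may include or lose reads shared with them.

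Genes of the same pathway outside the module were taken from 8 lists with 175 genes in all, of which 143 were tested. Of these, 57 were higher and 58 lower in MSH2KO21B. Quantile normalization gave 46 and 69, and median ratios 51 and 70. The 80.4% called compares with 76.2% of all genes tested, of which 46.6% were higher and 29.7% lower, and the median was -0.22 relative to all genes. Each list held from 1 to 7 tested genes that were under 1 TPM in both libraries of 1 line, and all of these were called toward the other line.

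Genes that control NRF2 were mixed, with 7 of 20 tested members higher and 8 lower. These became 4 and 9 with quantile normalization, and 6 and 11 with median ratios. Their median was -0.22 relative to all genes. The 75% called was near the 76.2% of all genes tested, so the counts alone do not set this list apart. Leaving out either MSH2KO21B library lowered the 8 to 4. Nfe2l3, a relative of NRF2 from the same factor family, was at 15.5 and 17.3 TPM in MECPK and 0.588 and 0.597 TPM in MSH2KO21B. It had the largest difference of the list (log2 difference -3.45 ± 0.089 SE, limma Benjamini-Hochberg adjusted p = 1.8e-05). Under 1 TPM in both MSH2KO21B libraries, Nfe2l3 passed the filter through MECPK alone. Btrc, the receptor of a second ubiquitin ligase that degrades NRF2, was at 14.4 and 15.0 TPM in MECPK and 5.22 and 4.80 TPM in MSH2KO21B. Btrc was called lower (log2 difference -1.39 ± 0.079 SE, limma adjusted p = 0.000149). Gsk3b, the kinase that marks NRF2 for that ligase, was at 32.6 and 34.4 TPM in MECPK and 79.4 and 83.7 TPM in MSH2KO21B. Gsk3b was called higher (log2 difference 1.26 ± 0.059 SE, limma adjusted p = 8.5e-05). Dpp3, a peptidase that binds KEAP1, was at 74.1 and 71.4 TPM in MECPK and 38.2 and 35.4 TPM in MSH2KO21B and was called lower (log2 difference -0.96 ± 0.061 SE, limma adjusted p = 0.000207).

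Further NRF2 targets were split too, with 10 of 26 higher and 8 lower. Quantile normalization gave 9 and 12, and median ratios 9 and 13. Relative to all genes, the median as deposited was -0.085, and 69.2% were called against 76.2% of all genes tested. Without either MSH2KO21B library 5 were lower, and with the filter of 10 TPM 6 were higher and 9 lower of 21 tested. Of the 26 genes, 5 were under 1 TPM in both MECPK libraries and so were tested only through MSH2KO21B, and 3 of these are named here. Ptgr1, a reductase of reactive alkenals and prostaglandins, was at 0.407 and 0.571 TPM in MECPK and 33.9 and 32.5 TPM in MSH2KO21B. Ptgr1 was called higher (log2 difference 4.52 ± 0.092 SE, limma Benjamini-Hochberg adjusted p = 1.1e-05). Pir, the iron-binding protein pirin, was at 0 and 0.0375 TPM in MECPK and 23.1 and 21.1 TPM in MSH2KO21B (limma adjusted p = 1.0e-05). Ugt1a6a, a glucuronosyltransferase, was at 0.0452 and 2.35e-05 TPM in MECPK and 16.8 and 16.6 TPM in MSH2KO21B (limma adjusted p = 1.0e-05). The genes of its family share exons, so the split among them is uncertain. Akr1c13, an aldo-keto reductase, went the other way, at 58.6 and 62.6 TPM in MECPK and 1.28 and 1.13 TPM in MSH2KO21B. Akr1c13 was 50.2-fold lower (log2 difference -4.80 ± 0.081 SE, limma adjusted p = 8.2e-06).

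Glutathione supply and turnover had 13 of 19 members higher and 5 lower. These became 10 and 5 with quantile normalization, and 12 and 5 with median ratios. Its median on the deposited scale, less that of all genes, was 0.89. The count and the median rest in part on genes let in by being high, since Cbs, Ggt1, Ggt6, Ggt7 and Oplah, all under 1 TPM in both MECPK libraries, passed the filter through MSH2KO21B. Cth, at 1 TPM or more only in replicate 1 of MECPK, could not pass without MSH2KO21B either. With the filter of 10 TPM 9 were higher and 5 lower of 15 tested, where 46.6% of all genes were higher and 29.7% lower on the main filter. Ggt1, the surface enzyme that breaks down extracellular glutathione and so returns its amino acids, was at 0.264 and 0.178 TPM in MECPK and 77.2 and 73.8 TPM in MSH2KO21B. Ggt1 was 341-fold higher (log2 difference 5.97 ± 0.080 SE, limma Benjamini-Hochberg adjusted p = 5.8e-06). Its relative Ggt6 was at 0 and 0.0371 TPM in MECPK and 4.40 and 5.68 TPM in MSH2KO21B (limma adjusted p = 0.000106). Both enzymes of transsulfuration, the route from methionine to cysteine, were higher too. Cth was at 1.21 and 0.829 TPM in MECPK and 28.7 and 26.2 TPM in MSH2KO21B. Cth was called higher (log2 difference 3.82 ± 0.12 SE, limma adjusted p = 3.2e-05). Cbs was at 0.130 and 0.122 TPM in MECPK and 8.22 and 13.1 TPM in MSH2KO21B, with MSH2KO21B libraries that differed from each other but lay above both MECPK libraries (log2 difference 3.34 ± 0.22 SE, limma adjusted p = 0.000227).

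Of 17 further transferase genes 8 were tested, 4 of them higher and 1 lower. Quantile normalization gave 3 and 3, and median ratios 4 and 2. The median of the list as deposited, set against that of all genes, was 0.29. The share called was 62.5%, against 76.2% of all genes tested. With no filter 8 were higher and 0 lower of 14 tested, and with 1 library left out the lower count ran from 0 to 2. Gstp2, Gstt3 and Ptges passed the filter through MSH2KO21B alone. Ptges, the inducible prostaglandin E synthase, which is related to the microsomal transferases, was at 0.390 and 0.513 TPM in MECPK and 34.8 and 39.7 TPM in MSH2KO21B. Ptges was called higher (log2 difference 4.72 ± 0.10 SE, limma Benjamini-Hochberg adjusted p = 1.2e-05). Gstt3 had values of 0 in both libraries of MECPK and of 12.5 and 13.7 TPM in MSH2KO21B (limma adjusted p = 1.3e-05). Gstm7 was at 17.6 and 18.1 TPM in MECPK and 26.2 and 26.1 TPM in MSH2KO21B. Gstm7 was called higher (log2 difference 0.52 ± 0.058 SE, limma adjusted p = 0.00121). Gstz1, which also acts in tyrosine breakdown, was at 20.8 and 21.7 TPM in MECPK and 17.3 and 13.5 TPM in MSH2KO21B and was called lower (log2 difference -0.45 ± 0.13 SE, limma adjusted p = 0.0289). The Gstz1 call was lost when either MECPK library was left out (adjusted p = 0.113 and 0.14). The same held when MSH2KO21B replicate 2 was left out (0.0845) or low genes were not filtered (0.0536).

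Other thioredoxin, peroxiredoxin and peroxidase genes had 15 of 27 lower and 9 higher. These became 15 and 8 with quantile normalization, and 15 and 7 with median ratios. Relative to all genes, the median as deposited was -0.55. Of all genes tested, 29.7% were lower and 46.6% higher. The lower count and the median rest in part on genes let in by being high in MECPK. Prdx4, Sesn3 and Msrb2, all under 1 TPM in both MSH2KO21B libraries, passed the filter through MECPK alone. With the filter of 10 TPM 12 were lower and 7 higher of 21 tested. Prdx4, the peroxiredoxin of the secretory pathway, was at 34.8 and 32.8 TPM in MECPK and 0.126 and 0.178 TPM in MSH2KO21B. Prdx4 was 222-fold lower (log2 difference -4.92 ± 0.081 SE, limma Benjamini-Hochberg adjusted p = 7.8e-06). Txnip, which binds thioredoxin and blocks it, was at 50.9 and 43.8 TPM in MECPK and 7.99 and 8.57 TPM in MSH2KO21B. Txnip was called lower (log2 difference -2.38 ± 0.096 SE, limma adjusted p = 5.7e-05). Selenow, a small selenoprotein, was at 65.9 and 90.8 TPM in MECPK and 499 and 512 TPM in MSH2KO21B. Selenow was called higher (log2 difference 2.69 ± 0.16 SE, limma adjusted p = 0.000165). Msrb3, a methionine sulfoxide reductase, was at 1.96 and 2.57 TPM in MECPK and 25.1 and 26.2 TPM in MSH2KO21B. Msrb3 was called higher (log2 difference 3.04 ± 0.12 SE, limma adjusted p = 5.0e-05).

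The remaining NADPH and pentose phosphate genes had 5 of 19 higher and 8 lower. Quantile normalization and median ratios each gave 4 and 11, and rescaling without mitochondrially encoded genes gave 5 and 7. Its median on the deposited scale, less that of all genes, was -0.33. The share called was 68.4%, against 76.2% of all genes tested. With the filter of 10 TPM 3 were higher and 7 lower of 14 tested. Rpia, ribose-5-phosphate isomerase, stood beside Tkt as a lower gene of the non-oxidative branch, at 77.6 and 83.7 TPM in MECPK and 14.1 and 14.9 TPM in MSH2KO21B. Rpia was 5.56-fold lower (log2 difference -2.40 ± 0.068 SE, limma Benjamini-Hochberg adjusted p = 2.3e-05). Nadk, the kinase that makes NADP from NAD, was at 148 and 158 TPM in MECPK and 78.6 and 69.1 TPM in MSH2KO21B. Nadk was called lower (log2 difference -1.04 ± 0.080 SE, limma adjusted p = 0.000364). Me3, a malic enzyme of mitochondria that yields NADPH, was at 0.305 and 0.302 TPM in MECPK and 6.25 and 7.55 TPM in MSH2KO21B. Me3 was called higher (log2 difference 2.59 ± 0.11 SE, limma adjusted p = 6.6e-05). Under 1 TPM in both MECPK libraries, Me3 passed the filter through MSH2KO21B alone. Shmt1, the cytosolic serine hydroxymethyltransferase, was at 13.2 and 13.5 TPM in MECPK and 26.3 and 25.0 TPM in MSH2KO21B. Shmt1 was called higher (log2 difference 0.89 ± 0.064 SE, limma adjusted p = 0.000297).

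Of 17 genes for enzymes that make oxidants, 7 passed the filter, each through the line where it was high. Duox1, Duoxa1, Maoa, Xdh and Noxo1 were under 1 TPM in both MECPK libraries, and Cyba and Nox4 in both MSH2KO21B libraries. The filter thus nearly fixed that all 7 were called, 5 higher and 2 lower, and nothing is read from that count or from its size beside the 76.2% of all genes called. With no filter 9 were higher and 2 lower of 16 tested, and with the filter of 10 TPM 4 were higher and 1 lower of 5. With quantile normalization 4 were higher and 2 lower. Duox1, a dual oxidase that releases hydrogen peroxide at the surface of epithelia, was at 0.0272 and 0.0607 TPM in MECPK and 74.5 and 73.3 TPM in MSH2KO21B. Duox1 was called higher (log2 difference 6.17 ± 0.072 SE, limma Benjamini-Hochberg adjusted p = 5.1e-06). Its maturation factor Duoxa1 was at 0.289 and 0.272 TPM in MECPK and 71.4 and 78.8 TPM in MSH2KO21B. Duoxa1 was called higher (log2 difference 5.89 ± 0.083 SE, limma adjusted p = 5.9e-06). Both were near 0 in MECPK and of similar level in MSH2KO21B. Maoa, the mitochondrial monoamine oxidase, which yields hydrogen peroxide, was at 0.393 and 0.303 TPM in MECPK and 21.8 and 23.0 TPM in MSH2KO21B. Maoa was called higher (log2 difference 4.12 ± 0.084 SE, limma adjusted p = 1.1e-05). Cyba, the membrane partner of other NADPH oxidases, went the other way, at 26.4 and 24.1 TPM in MECPK and 0 and 0.0696 TPM in MSH2KO21B (limma adjusted p = 1.0e-05).

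Genes of iron handling and lipid peroxidation fell in 11 of the 17 members tested and rose in 4. Quantile normalization gave 12 lower and 4 higher, and median ratios changed neither count. The median of the list as deposited, set against that of all genes, was -0.54. The share called was 88.2%, against 76.2% of all genes tested, and 46.6% of all genes tested were higher. Slc40a1, under 1 TPM in both MSH2KO21B libraries, passed the filter through MECPK alone. With the filter of 10 TPM 9 were lower and 4 higher of 15 tested. Without MSH2KO21B replicate 1 the lower count was 7, and 29.7% of all genes tested were lower. Gch1, the first enzyme of tetrahydrobiopterin synthesis, was at 28.1 and 25.8 TPM in MECPK and 7.95 and 6.47 TPM in MSH2KO21B. Gch1 was called lower (log2 difference -1.77 ± 0.11 SE, limma Benjamini-Hochberg adjusted p = 0.000212). Steap3, a ferric reductase of endosomes, was at 15.7 and 17.6 TPM in MECPK and 4.41 and 4.36 TPM in MSH2KO21B. Steap3 was called lower (log2 difference -1.71 ± 0.086 SE, limma adjusted p = 0.000106). Acsl4, which loads membranes with oxidisable fatty acids, was at 34.3 and 34.1 TPM in MECPK and 17.0 and 18.9 TPM in MSH2KO21B. Acsl4 was called lower (log2 difference -0.90 ± 0.074 SE, limma adjusted p = 0.000453). Vkorc1l1, a vitamin K reductase, was at 57.0 and 60.4 TPM in MECPK and 31.4 and 33.0 TPM in MSH2KO21B. Vkorc1l1 was called lower (log2 difference -0.85 ± 0.060 SE, limma adjusted p = 0.000292). None of the 4 had libraries that overlapped between the lines, but that was a condition for naming a gene of these lists.

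**Figure D4:**
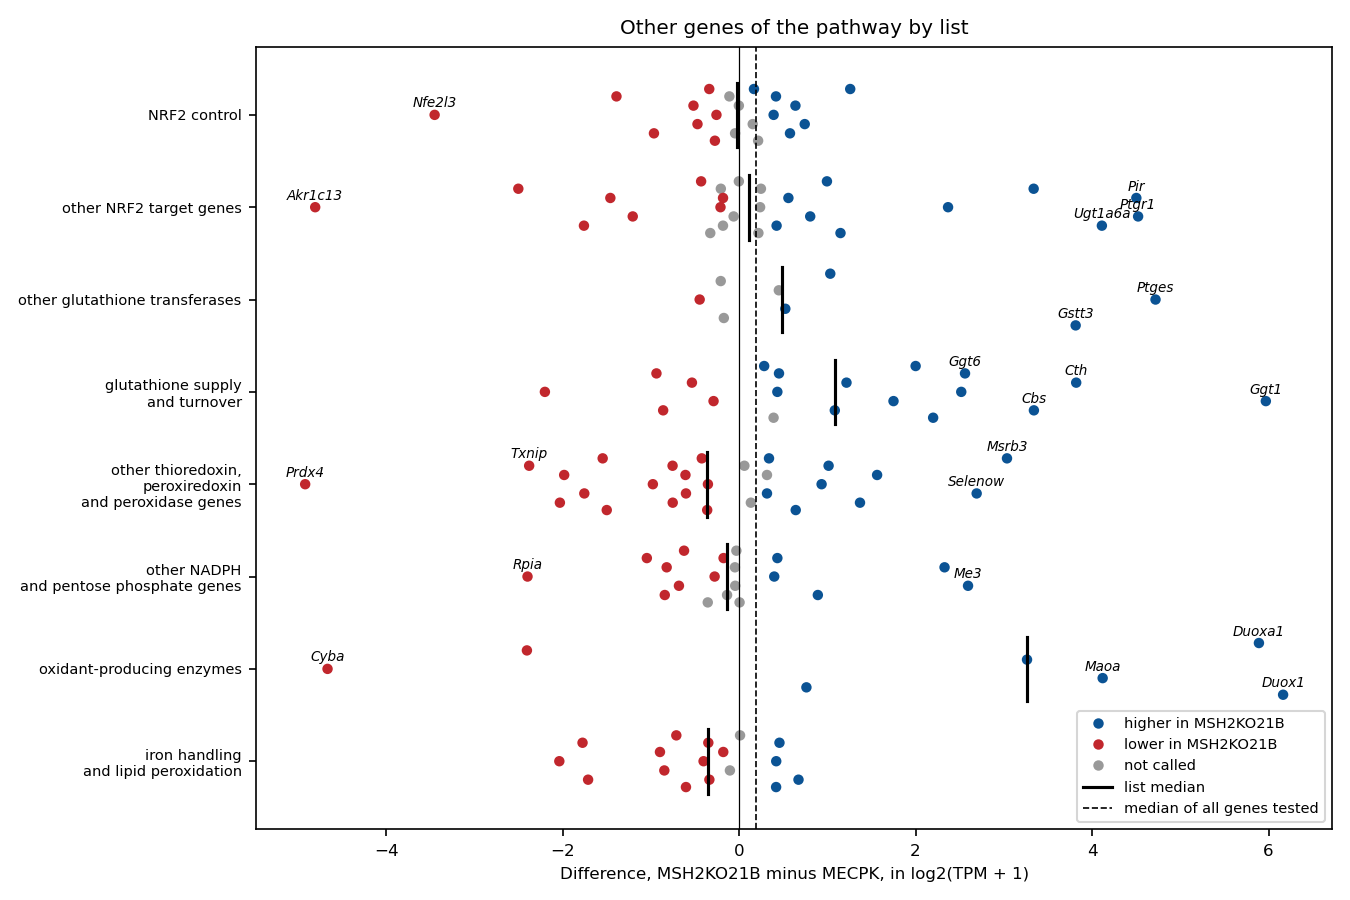
Difference between the lines in log2(TPM + 1), MSH2KO21B minus MECPK, for each tested gene of the 8 other pathway lists; blue was called higher, red lower and grey not called, height within a list only separates points, and the genes named in the text with the largest differences are labelled. Black bars are list medians. Relative to the median of all genes (dashed) they ran from -0.55 for other thioredoxin, peroxiredoxin and peroxidase genes to 3.07 for oxidant-producing enzymes. Each tested oxidant-producing gene passed the filter only through the line where it was high. The 0.89 of glutathione supply rests in part on such genes, and iron handling lay at -0.54.

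Among members with more than 1 listed transcript, most had the same leading transcript in all libraries. Of the 41 genes, 18 had 1 listed transcript, Nfe2l2 among them, and 22 of the other 23 had values above 0 in every library. The same transcript led in all 4 libraries in 18 of those 22. Ftl1 was an exception: a protein-coding transcript held 42.5% and 42.2% in MECPK and 61.2% and 58.0% in MSH2KO21B of its TPM, and a transcript annotated as a target of nonsense-mediated decay held nearly all the rest. For Keap1 the table lists equal values for 4 transcripts in every library, and equal values for the leading transcripts occurred in Gclm, Prdx1 and Gsta3, so those transcripts cannot be told apart here. Keap1, Gclm and Prdx1 count among the 18 of 22, although their leader was a pick among equal values. Gstt1 counts there too with only 1 transcript above 0, so it could show no change. Transcript levels are estimates of how shared reads divide and were not tested.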

How the data were processed

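Column-purified RNA of 2 endometrial cancer cell lines was sequenced as 4 Illumina libraries, per the labels' protocols. The deposited values are TPM for 61440 Ensembl transcripts, made with kallisto 0.43.1 and GRCm38 per the submitters' processing notes; the sources used here do not give depth, strand or transcript set. Transcripts were paired with GENCODE M21 genes by unversioned identifier, and the 937 unmatched ones held 0.733% to 0.944% of a library. TPM was summed per gene. Limma 3.58.1 (R 4.3.3, mean-variance trend, 2 residual and 2.49 prior degrees of freedom) was fitted to log2(TPM + 1) of the 11921 genes that passed the filter, with Benjamini-Hochberg adjustment and a threshold of 0.05. The fit was also run on simulated data with few changed genes, all raised, and equal spread. Unlike the real data in these respects, that run checks the code and not the calls.

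Members and lists were chosen with earlier results of these data known. All 41 members are described. In each other list the rule took at most 4 called genes by size of difference, with no overlap between lines and 5 TPM or more where higher; Gsta13 was not matched. Over 10% of the 31-base words of G6pdx, Cbr1, Gsta1, Gstm1, Gstm2 and Gstp1 occur in other GENCODE genes. Promoter windows came from RefSeq. The 13 alternatives covered the trend, 3 rescalings, transcript type, filters, the pseudocount, a replicate block and each library left out.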

Additional observations from a re-analysis of the deposited data

How the results depend on the processing

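Over the 13 alternatives, 17 of the 20 higher and 10 of the 12 lower members kept their direction and their call in every alternative in which they were tested. The 5 others were Txn1, Aldh3a1, Gstt1, Pgd and Mgst3, and none of them changed sign. The count of higher members ran from 15 to 22 and that of lower members from 10 to 16, the lowest count of higher members coming with the filter of 10 TPM, where 32 members were tested. Differences that changed sign belonged to members not called: Slc7a11 (-0.25), Mgst1 (-0.47) and Mgst2 (-0.049) after quantile normalization, G6pdx (-0.094), Taldo1 (-0.069), Mgst1 (-0.051) and Mgst2 (-0.060) after median-ratio scaling, and Mgst1 with a pseudocount of 0.1 (-0.080), without MECPK replicate 1 (-0.24) and without MSH2KO21B replicate 2 (-0.67). With 1 library left out Mgst1 ran from -0.67 to 0.78. The cause was not tested. Leaving out 1 library gave 18 to 21 higher and 10 to 14 lower members, and 4296 to 5272 higher and 2748 to 3320 lower genes over all tested; the lone library of a line was then assumed to vary like the others. With the replicate block 20 members were higher and 14 lower, and 5579 genes were higher and 3534 lower. Replicate differences in the lines correlated with r = 0.016 across genes. The labels do not say whether libraries with the same number shared a batch, and a correlation over all genes cannot decide it. The block added the calls of Hmox1 and Gstm1 among members. Depth is unknown, so members near 0 in MECPK could not be separated from absence.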
